A study of Arabidopsis thaliana with 87 samples.

Results

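Root nuclei of Arabidopsis thaliana taken 1 h after a return to air held 38958 peaks of open chromatin, and 7998 of them (20.5%) shared no base with a peak of the other 4 conditions. These regions are called R-only here, and the other 30960 peaks of the same list are called shared. An R-only peak was a peak of the list labelled 1R that overlapped, by 1 bp, no peak in the lists of 2NS, 2HS, 9NS and 9HS. All 5 lists together held 129078 peaks. The choice rests on which peaks were called in which condition, so every contrast of R-only with shared peaks that uses the ATAC reads is a description and carries no test.

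The seedlings were 7 days old and were moved at the end of the light period into darkness. Group 1R had 2 h of hypoxia in argon and then 1 h of reoxygenation, 2R had 2 h of each, 2HS and 9HS had 2 h and 9 h of hypoxia, and 2NS and 9NS were the matching controls in air. Open chromatin was mapped with ATAC-seq, in which the transposase Tn5 inserts adapters where DNA is accessible, on root tissue of the line pUBQ10:NTF pACT2:BirA, with 2 samples per group. This line carries a biotin-tagged nuclear envelope protein, so that nuclei can be purified by affinity. Nuclear RNA and poly(A)+ RNA of 1R, 2HS and 2NS came from the same line but from whole seedlings, with 3 samples per group. Ribosome-bound RNA (TRAP) came from whole seedlings of p35S:RPL18-FLAG, a line with a tagged ribosomal protein, for 2R, 2HS and 2NS, with 3 samples per group; its reoxygenation lasted 1 h longer than that of the ATAC samples. Samples of 1R were taken 1 h later in the night than those of 2HS and 2NS, and samples of 2R 2 h later. Reoxygenation and the hour therefore cannot be told apart. The labels do not say whether the 1R and 2R libraries were made together with the others. In bulk samples, fewer cells of a type and less RNA per cell cannot be told apart either.

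Open chromatin in plants lies mostly just upstream of gene starts, where transcription factors displace nucleosomes. When oxygen is short, the group VII ethylene response factors are stable and switch on fermentation and sugar catabolism genes. On return to air, oxygen again lets plant cysteine oxidases mark these factors for destruction, while the tissue meets oxidative stress, water loss and jasmonate signalling.

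Each list was made from the combined reads of its condition, so no peak has a spread between replicates. The 1R list was the longest of the 5, against 27219 peaks in 2HS, 27065 in 9NS, 21438 in 9HS and 14398 in 2NS. It overlapped 95.0% to 97.7% of the peaks of each other list. Peaks in no other list made up 20.5% of the 1R list, against 2.48% of 2HS, 2.97% of 9HS, 2.42% of 9NS and 0.313% of 2NS. The deposited Peak Scores were whole multiples of a fixed step in every list. If they are scaled to 10 M tags (M, 1e6), the combined tags came to 16.4 M in 1R, against 12.4 M in 2HS, 13.6 M in 9HS, 9.61 M in 9NS and 14.1 M in 2NS. The lowest score called was 17.7 in 1R and between 18.5 and 21.9 in the other lists. On that scaling the 1R list was the deepest. Its lowest score was the lowest of the 5 lists, but in tags it came to 29, against 21 to 27 in the others. The part of depth and of these limits in the number of R-only peaks was not tested.

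R-only peaks were weak. Their median Peak Score was 25.7 (quartiles 23.2 and 28.7), against 48.2 (33.6 and 85.5) for shared peaks. The score grew with the number of other lists that held the peak: the median was 29.3 for peaks shared with 1 list, 36.0 with 2, 47.6 with 3 and 98.9 with all 4. Of the 5016 peaks of 1R with a score under 25, 66.0% were R-only, against 0.215% of the 12088 peaks with a score of at least 60. At or above the 1R median score of 39.7, 196 of 19621 peaks (0.999%) were R-only. When the 1R list was cut to its 14398 strongest peaks, the length of the shortest list, 82 R-only peaks were left (0.570%). Most R-only peaks therefore stood at the bottom of the 1R list, and few were among its strong peaks. The 161 R-only peaks within 10 bp of a peak of another list had a median score of 26.3, against 26.9 for the 141 shared peaks that overlapped another list by at most 10 bp. R-only peaks were also narrow: 98.7% were 131 bp wide, the median width of the list, against 72.7% of shared peaks.

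**Figure D1:**
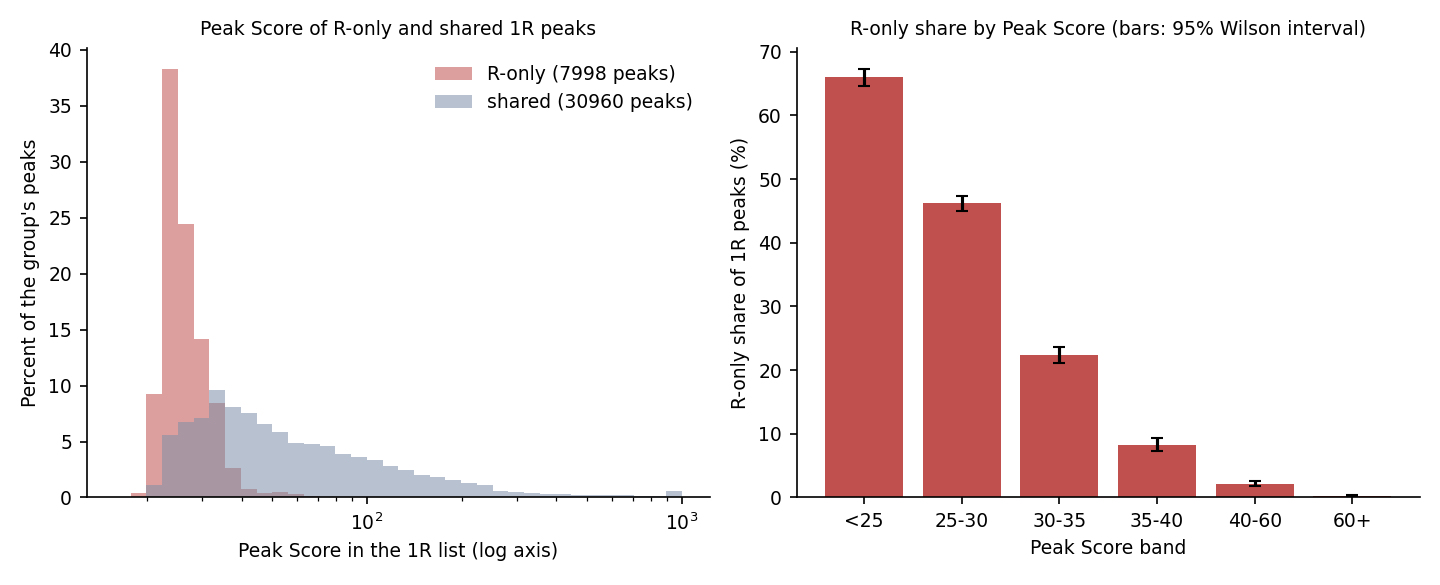
Left, share of R-only and of shared 1R ATAC peaks, in percent, by Peak Score (log axis, the last bin gathers the highest scores); right, R-only share of 1R peaks in each Peak Score band, with 95% Wilson intervals. R-only peaks gather at the low end, around their median of 25.7, against 48.2 for shared peaks, and their share drops to 0.215% in the band from 60 up.

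Most R-only regions lay at gene starts, as the shared ones did. The annotation class promoter-TSS (1000 bp before to 100 bp after a transcription start) held 4620 R-only peaks, 57.8% (95% Wilson interval 56.7 to 58.8), against 61.8% (61.2 to 62.3) of shared peaks. Transcription termination sites held 16.0% of R-only and 13.7% of shared peaks. Intergenic sequence held 14.2% and 15.7%, exons 8.65% and 6.56%, and introns 3.34% and 2.35% of R-only and shared peaks. These intervals cover counting error only. Peaks of like score were compared as well, since weak 1R peaks had fewer promoters in both groups. With a score of 30 to 35, 62.3% (59.2 to 65.2) of R-only peaks and 58.0% (56.3 to 59.6) of shared peaks were at promoters. With a score under 25 the shares were 54.2% (52.5 to 55.8) and 53.2% (50.82 to 55.55). With 25 to 30 they were 58.6% (56.9 to 60.3) and 55.8% (54.2 to 57.4). Within each of these 3 bands the R-only share at promoters was the higher one, the reverse of the order over all scores. The intervals overlapped in each of these 3 bands, though only just with 30 to 35. The R-only share was also higher with 35 to 40 (69.8% against 62.1%) and with 40 to 60 (68.8% against 65.1%). With at least 60 it was lower, 53.8% (35.5 to 71.2) of 26 R-only peaks against 63.9% of shared peaks. In the first 3 bands the intergenic share of R-only peaks was the lower one. It was 15.3% against 20.6% of shared peaks with a score under 25, and 13.8% against 18.4% with 25 to 30. By chromosome, R-only peaks made up between 17.7% (chromosome 2) and 21.6% (chromosomes 1 and 4) of the nuclear 1R peaks, so they were spread over the whole genome.

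**Figure D2:**
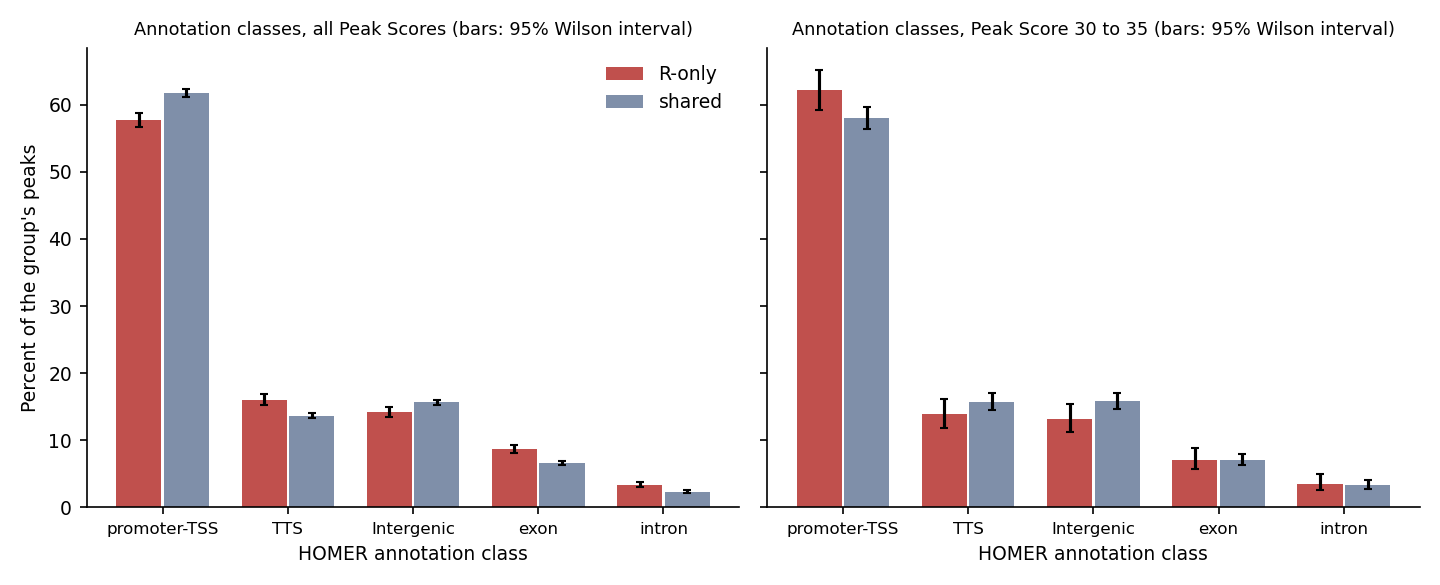
Share of R-only and of shared 1R peaks in each annotation class, in percent, with 95% Wilson intervals for counting error, for all Peak Scores (left) and for scores of 30 to 35 (right). Promoter-TSS holds 57.8% of R-only and 61.8% of shared peaks on the left, and 62.3% and 58.0% on the right.

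At promoters, the median R-only peak sat slightly farther upstream of the gene start. Over the 4112 R-only promoter peaks whose own gene was the nearest one, the median distance from the start was -136 bp (quartiles -460 and -15), against -108 bp (-397 and -21) for 16299 shared promoter peaks. The 100 bp before the start held 25.1% of the R-only and 30.4% of the shared peaks. The stretch more than 500 bp upstream held 22.8% and 19.8%. From the start to 100 bp after it, the R-only share was the higher one too, 19.4% against 17.4%. Distances were not compared between peaks of like score. R-only regions often stood beside peaks that were called in other conditions: 2078 of them (26.0%) had a peak of another list within 150 bp, and 4881 (61.0%) within 1000 bp. The median gap was 587 bp. Peaks of HRE2, a hypoxia-induced group VII factor that was immunoprecipitated from whole 2HS seedlings of p35S:C2A HRE2-HA, which overexpress a tagged form of it, overlapped 172 R-only peaks. This is 2.15% (1.85 to 2.49), against 2.70% (2.32 to 3.14) of the 1R peaks shared with 1 list and 6.68% (6.41 to 6.96) of all shared peaks. The share was thus lowest in R-only peaks, with an interval that overlaps that of the weakest shared ones.

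**Figure D3:**
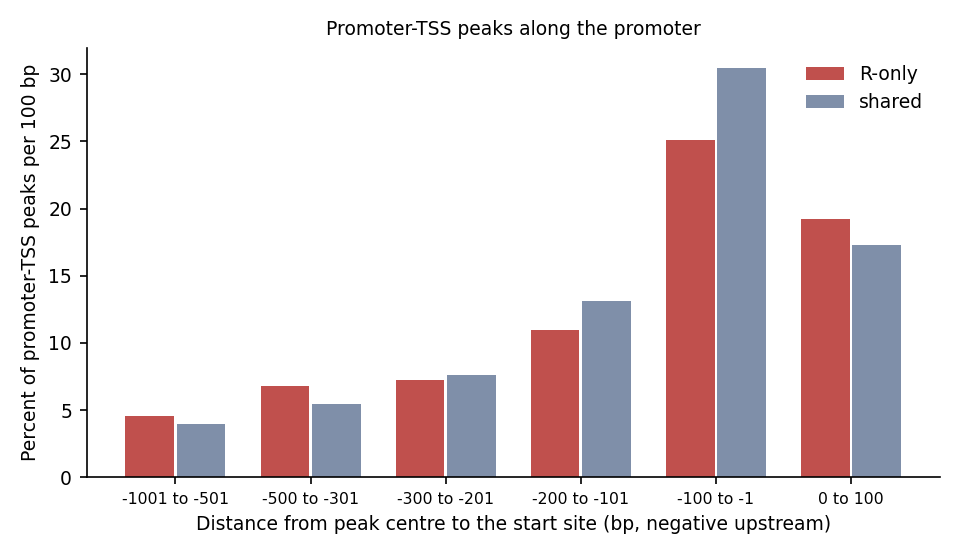
Share of promoter-TSS peaks per 100 bp of window, in percent, by distance from the transcription start of their own gene in bp, for R-only and shared 1R peaks. The window from -100 to -1 bp holds 25.1% of the R-only and 30.4% of the shared peaks.

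The 4620 R-only promoter peaks belonged to 4194 genes. Of these, 3808 had 1 such peak, 346 had 2 and 40 had 3 or more. Protein-coding genes with RPKM values (reads per kilobase of gene, scaled to library size) numbered 3756, which is 13.7% of all 27339. In 1910 of them, no promoter peak other than R-only ones was found in any of the 5 lists. Shared promoter peaks alone marked 10052 genes, and 13531 genes had no 1R promoter peak. The marker check of the tissue gave promoter peaks of 1R at 8 of 10 root markers, 4 of them R-only, and at 3 of 8 shoot markers, 1 of them R-only. CASP1 and the nitrate transporter NRT2:1 were the root markers without a peak. The photosynthesis genes RBCS1A, RCA and GUN5 were the shoot markers with one.

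In the air control 2NS, genes with R-only promoters were found at all levels of nuclear RNA, least often where it was 0 or low. In nuclear RNA of 2NS the median level was 1.83 RPKM for genes whose promoter peaks were all R-only. It was 3.08 RPKM for genes with an R-only peak beside one that was not R-only. It was 2.99 RPKM for genes with shared peaks alone, 0.28 RPKM for genes with none and 1.44 RPKM for all genes. An R-only promoter was found in 6.69% of the 6429 genes listed at 0 and in 12.7% of the lowest of 5 equal classes of the others. In the 4 classes above, the share lay between 16.4% and 17.2% and no longer grew with the level. The share with shared promoter peaks alone grew through all classes, to 54.1% in the highest. Marks of active promoters were likewise higher in genes with an R-only promoter peak than in genes with none. H3K9ac, an acetylation of active promoters, had a median of 12.43 RPKM in 2NS over genes with an R-only peak and no other, 14.99 RPKM where another peak was present, 14.65 RPKM with shared peaks alone and 7.73 RPKM with no peak. H3K4me3, a methylation at active gene starts, had medians of 12.75, 14.30, 15.24 and 7.74 RPKM in the same order, so that here the genes with shared peaks alone were the highest. H3K27me3, the Polycomb mark of silent genes, had a median of 4.17 RPKM over genes with an R-only promoter peak, against 3.76 RPKM with shared peaks alone and 6.11 RPKM with none. These marks were measured in whole seedlings of Col-0, a different line from those of the ATAC and RNA samples, and without reoxygenation.

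As a group, genes with an R-only promoter peak changed their RNA at reoxygenation about as often as all genes did. Changes are log2 ratios of RPKM + 1 between the authors' group means, relative to the median gene of the comparison. They cover genes that averaged 1 RPKM or more over the groups of the assay. The median gene itself stood 0.61 higher in poly(A)+ RNA of 1R than of 2HS and 0.86 higher than in 2NS, and in nuclear RNA 0.46 higher in 1R than in 2HS. In nuclear RNA of 1R against 2HS, 397 of 2651 genes with an R-only promoter peak (15.0%) were at least 2-fold higher, against 14.2% of all genes, and 329 (12.4%) at least 2-fold lower, against 13.4%. For poly(A)+ RNA of 1R against 2HS, 57 of 2137 (2.67%) were at least 2-fold higher, against 2.60% of all genes, and 45 (2.11%) lower, against 2.01%. Both kinds of RNA thus gave shares near the background. Against 2NS, 251 genes (9.47%) were at least 2-fold higher in nuclear RNA of 1R, with 10.0% of all genes, and 215 (8.11%) lower, with 8.56%. For poly(A)+ RNA of 1R against 2NS, 56 genes (2.62%) were at least 2-fold higher, with 2.96% of all genes, and 17 (0.796%) lower, with 0.857%. In TRAP RNA of 2R against 2HS, 143 of 2686 genes (5.32%) were at least 2-fold higher, against 4.82% of all genes, and 195 (7.26%) lower, against 7.38%. In TRAP RNA of 2R against 2NS, 39 genes (1.45%) were at least 2-fold higher, with 1.41% of all genes, and 9 (0.335%) lower, with 0.650%. The median change of the 1R genes was 0.02 and 0.02 in nuclear RNA and -0.01 and -0.01 in poly(A)+ RNA, against 2HS and 2NS, so the group did not stand off the median gene.

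**Figure D4:**
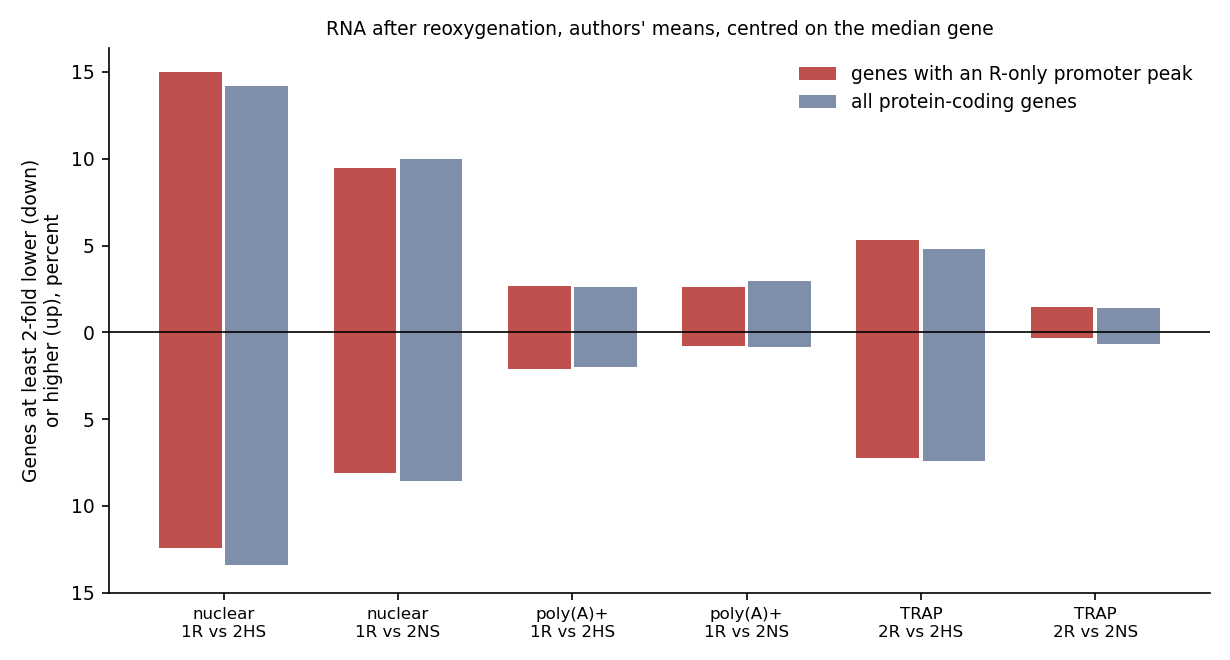
Share of genes, in percent, at least 2-fold higher (bars up) or lower (bars down) in nuclear and poly(A)+ RNA of 1R and in TRAP RNA of 2R, against 2HS and 2NS, for genes with an R-only promoter peak and for all protein-coding genes. The bars of both groups are close in each comparison, with 15.0% and 14.2% higher in nuclear RNA of 1R against 2HS.

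The test on reads recovered for each library (limma, Benjamini-Hochberg adjustment at 0.05) covered the genes whose reads could be resolved in both groups compared. Some of these genes lacked values in other groups of the same fit. Genes with many reads could often not be resolved, so the test left out many abundant genes. In poly(A)+ RNA of 1R against 2HS it covered 5756 of the 12712 genes that averaged 1 RPKM or more. In poly(A)+ RNA of 1R against 2HS, 85 of 998 genes with an R-only promoter peak rose, against 8.70% of all genes tested, and 67 fell, against 7.45%. Against 2NS, 79 of 1013 rose in poly(A)+ RNA of 1R, against 7.25%, and 66 fell, against 7.37%. These calls needed the libraries to be centred one by one on their median gene: without it 5 rose and 2 fell against 2HS, and 2 rose and 1 fell against 2NS. Without the middle-sized library of 1R, 63 rose and 35 fell against 2HS, and 46 rose and 32 fell against 2NS. In nuclear RNA of 1R against 2HS, 3 of 2172 rose, against 0.152% of all genes tested, and 5 fell, against 0.312%. Without the largest library of 1R, 14 rose and 19 fell, and without the middle-sized library of 2HS 0 rose and 0 fell. In nuclear RNA of 1R against 2NS, limma called 0 of 2148, against 0% of all genes tested, while 144 of them had an unadjusted p under 0.05. In TRAP RNA of 2R against 2HS, 279 of 1625 (17.2%) rose, against 14.3% of all genes tested, and 212 (13.0%) fell, against 14%. In TRAP RNA of 2R against 2NS, 26 of 1778 rose, against 1.50%, and 16 fell, against 1.17%; without the middle-sized library of 2R, 44 rose and 19 fell, and without the largest 8 rose and 3 fell. Genes whose promoter peaks were all R-only gave 16.2% higher and 11.2% lower in TRAP RNA of 2R against 2HS. Genes with shared promoter peaks alone gave 14% and 13.3%. The nuclear RNA libraries were uneven: those of 1R correlated with each other at 0.385 to 0.686 across genes, those of poly(A)+ RNA at 0.81 or more.

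Genes beside R-only peaks away from promoters were at least 2-fold apart more often than all genes in TRAP RNA of 2R against 2HS. The same held in poly(A)+ RNA of 1R against 2HS, and for genes beside shared peaks in both. The nearest genes of R-only intergenic peaks numbered 576 in TRAP RNA of 2R against 2HS, of which 11.8% were at least 2-fold higher and 13.0% lower. The nearest genes of shared intergenic peaks alone gave 8.53% and 12.2% of 1020. Genes with an R-only peak in an exon or intron gave 9.53% and 11.3% of 640, against 9.63% and 12.2% of the 1038 with shared peaks there alone. Genes with an R-only peak at their termination site gave 6.81% and 9.03% of 720, and those with shared peaks there alone 6.76% and 10.5% of 1450. All of these shares lay above those of all genes, 4.82% and 7.38%, for R-only and shared peaks alike. In poly(A)+ RNA of 1R against 2HS, 5.03% of the 457 nearest genes of R-only intergenic peaks were at least 2-fold higher and 4.38% lower. Shared intergenic peaks alone gave 4.91% and 5.53% of 814, and all genes 2.60% and 2.01%. In either direction, genes with an R-only exon or intron peak gave 7.17% and those with an R-only termination site peak 5.69%. Shared peaks there alone gave 12.4% and 8.51%, and all genes 4.61%. In nuclear RNA of 1R against 2HS, 30.4% of the genes nearest to R-only intergenic peaks, 29.0% of those with an R-only exon or intron peak and 26.6% of those with an R-only termination site peak were at least 2-fold apart in either direction, near the 27.6% of all genes. In TRAP RNA of 2R against 2NS these shares were 2.60%, 2.19% and 1.39%, near the 2.06% of all genes.

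Among the core hypoxia genes, which many plant cells induce when oxygen is short, 7 of the 31 with values (22.6%) had an R-only promoter peak, against 13.7% of all genes. They were PDC1, SUS1, PCO2, SRO5, AT4G24110, AT5G66985 and AT4G33560. All 7 lay at least 2-fold lower in nuclear RNA of 1R than of 2HS, by a median of -2.61 on the log2 scale. All 7 lay at least 2-fold lower in TRAP RNA of 2R than of 2HS as well, by a median of -4.75. With poly(A)+ RNA of 1R, 6 of 7 were at least 2-fold lower than in 2HS (median -2.86). Against 2NS, 5 were at least 2-fold higher in nuclear RNA of 1R, with a median of 1.30, and 4 in poly(A)+ RNA, with a median of 1.05. In TRAP RNA of 2R, 1 was at least 2-fold higher than in 2NS (median 0.16). Of the core hypoxia genes without an R-only promoter peak, 20 of 22 were at least 2-fold lower in nuclear RNA of 1R than of 2HS (median -2.59), 13 of 22 in poly(A)+ RNA of 1R (median -1.65) and 21 of 21 in TRAP RNA of 2R (median -3.91). Against 2NS, 9 of these 22 were at least 2-fold higher in nuclear RNA of 1R (median 0.94) and 13 of 22 in poly(A)+ RNA (median 1.05).

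PDC1 (AT4G33070) encodes pyruvate decarboxylase, the entry to ethanol fermentation. Its R-only peak lay at chr4:15955393-15955524 (TAIR10), at -655 bp from its start, with a score of 21.4, and the nearest peak of another list was 344 bp away. Authors' means of nuclear RNA were 20.1 RPKM in 1R, 147 RPKM in 2HS and 4.75 RPKM in 2NS, and those of poly(A)+ RNA were 38.2, 157 and 2.12 RPKM in the same order. TRAP RNA averaged 20.3 RPKM in 2R, 925 RPKM in 2HS and 9.22 RPKM in 2NS. Reads of single libraries could not be resolved for this abundant gene, so these means carry no error. With this peak called in 1R, PDC1 RNA in 1R and 2R lay well below its 2HS level and above its 2NS level.

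PCO2 (AT5G39890), a plant cysteine oxidase that uses oxygen to oxidise the amino end of group VII factors, had an R-only peak at chr5:15973946-15974077 with a score of 23.8, 27 bp from a peak of another list. Nuclear RNA averaged 4.04 RPKM in 1R, 41.2 RPKM in 2HS and 2.69 RPKM in 2NS, and TRAP RNA 4.06 RPKM in 2R, 136 RPKM in 2HS and 4.44 RPKM in 2NS. Its ribosome-bound level in 2R was thus that of the control. SUS1 (AT5G20830), a sucrose synthase that feeds sucrose into glycolysis, had a peak over its start at chr5:7055298-7055429 with a score of 34.2, 906 bp from any peak of another list. Its poly(A)+ RNA averaged 22.4 RPKM in 1R, 21.6 RPKM in 2HS and 0.944 RPKM in 2NS. Relative to the median gene this is a change of -0.56 from 2HS; without centring the sign turns to slightly above 0. Its TRAP RNA averaged 9.62 RPKM in 2R, against 109 RPKM in 2HS and 3.40 RPKM in 2NS, and the rise over 2NS was called (1.16 ± 0.16 SE, limma adjusted p 0.00387).

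SRO5 (AT5G62520), a relative of the stress regulator RCD1, had an R-only peak at its start with a score of 22.6. Its poly(A)+ RNA was 2.58, 3.58 and 1.99 RPKM in the 3 libraries of 1R, from the smallest to the largest library, against 1.67, 11.6 and 7.12 RPKM in 2HS and 0.083, 0.123 and 0.357 RPKM in 2NS. The groups 1R and 2HS overlapped in RPKM, and after each library was centred the gene fell in 1R by 1.41 ± 0.29 SE relative to 2HS (limma adjusted p 0.00154, and 0.154 without centring each library). AT4G24110 had nuclear RNA of 0, 8.37 and 1.48 RPKM in 1R and of 20.0, 28.5 and 5.40 RPKM in 2HS. The groups overlapped, and the gene fell by 2.97 ± 0.66 SE (adjusted p 0.0472). That call was lost when the smallest or largest library of 1R, or the smallest or middle one of 2HS, was left out, and with only 1R and 2HS in the fit (adjusted p 0.0808). AT5G66985 had TRAP RNA of 2.67, 0.62 and 1.85 RPKM in 2R, against 24.9, 27.3 and 30.1 RPKM in 2HS and 1.07, 1.61 and 1.21 RPKM in 2NS. All libraries of 2R were far under those of 2HS and overlapped those of 2NS, and the gene changed relative to 2HS by -3.66 ± 0.24 SE (adjusted p 6.59e-07). AT4G33560 was the one hypoxia gene of the 7 with no promoter peak other than its R-only peak, and its TRAP RNA averaged 23.8 RPKM in 2R, 618 RPKM in 2HS and 19.4 RPKM in 2NS.

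**Figure D5:**
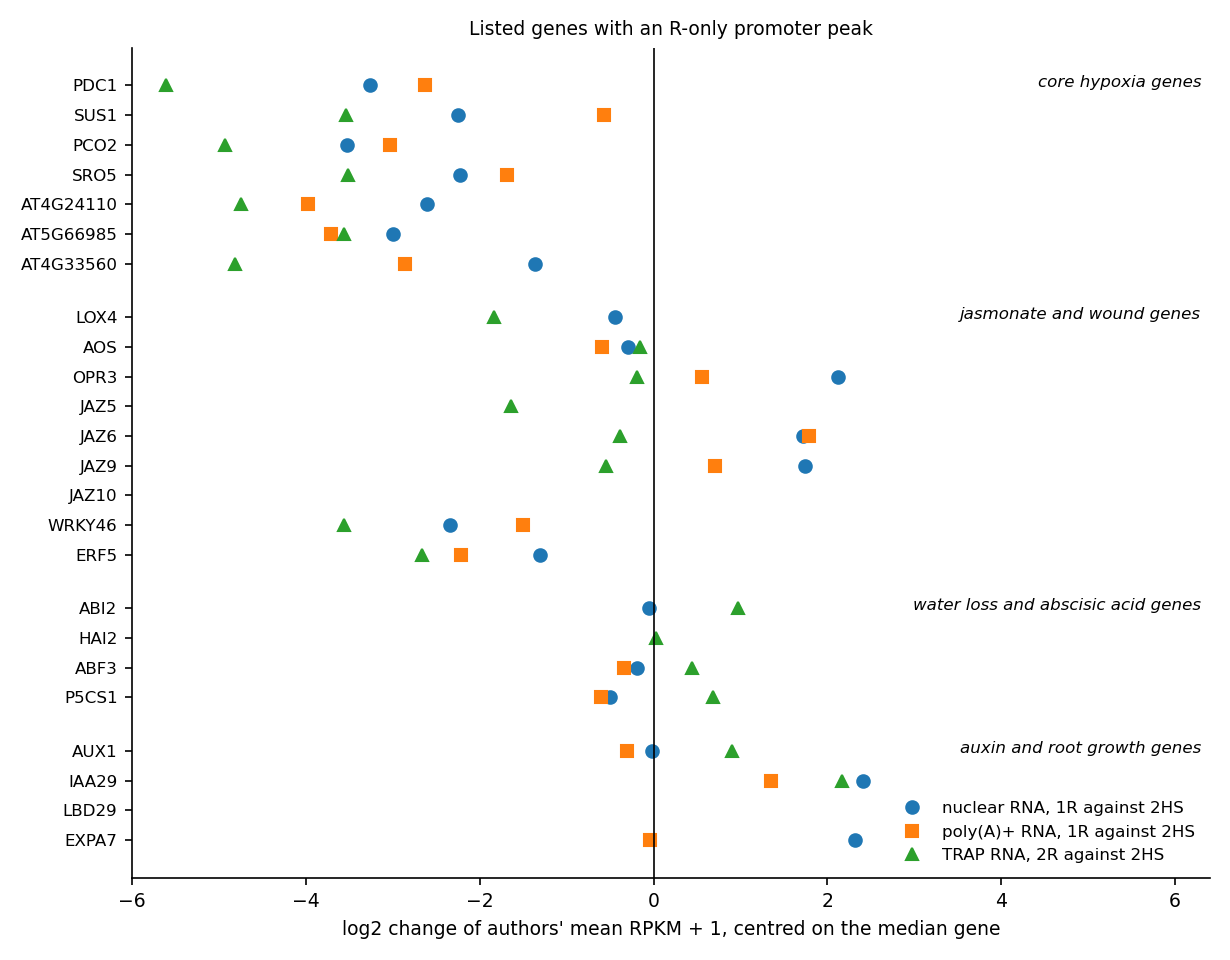
Log2 change of the authors' mean RPKM + 1, relative to the median gene, for genes of 4 lists with an R-only promoter peak (circles, nuclear RNA of 1R; squares, poly(A)+ RNA of 1R; triangles, TRAP RNA of 2R; each against 2HS). The 7 core hypoxia genes lie below 0 in every assay plotted and the jasmonate genes on both sides; a symbol is left out where the gene averaged under 1 RPKM in the assay, as in all assays for JAZ10 and LBD29.

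Jasmonate and wound genes had an R-only promoter peak in 9 of 22 cases (40.9%): LOX4, AOS and OPR3 of jasmonate synthesis, the JAZ repressors JAZ5, JAZ6, JAZ9 and JAZ10, and the transcription factors WRKY46 and ERF5. Against 2HS, their RNA moved at least 2-fold in both directions in nuclear and poly(A)+ RNA of 1R. In TRAP RNA of 2R, 0 of 8 were at least 2-fold higher than in 2HS and 4 were lower (median -1.10). Of 9 listed genes without an R-only promoter peak, 1 was higher and 6 were lower there (median -1.23). In poly(A)+ RNA of 1R against 2HS, 1 of 6 was higher and 2 were lower. In nuclear RNA, 3 of the 7 with a mean of at least 1 RPKM were at least 2-fold higher in 1R than in 2HS and 2 were lower, against 1 and 4 of 8 genes of the list without an R-only promoter peak. OPR3, the peroxisomal reductase of jasmonate synthesis, had nuclear RNA of 25.7, 3.46 and 4.58 RPKM in 1R, 1.16, 1.11 and 0.868 RPKM in 2HS and 1.66, 4.16 and 0.971 RPKM in 2NS. The libraries of 1R lay above those of 2HS without overlap, and the difference of 1.60 ± 0.57 SE missed the threshold (limma adjusted p 0.213). JAZ6, with R-only peaks at chr1:27277308-27277439 and chr1:27277475-27277606, had nuclear RNA of 6.97, 7.17 and 9.76 RPKM in 1R and of 1.82, 0.507 and 0.603 RPKM in 2HS, a difference of 1.73 ± 0.43 SE that also missed it (adjusted p 0.0753). In poly(A)+ RNA, JAZ6 averaged 10.9 RPKM in 1R, 1.26 RPKM in 2HS and 1.11 RPKM in 2NS. JAZ9, the other gene at least 2-fold higher in nuclear RNA, averaged 17.9 RPKM in 1R, 3.11 RPKM in 2HS and 6.85 RPKM in 2NS. No library values of 1R could be resolved for JAZ9, nor for JAZ6 in poly(A)+ RNA. WRKY46, by contrast, had poly(A)+ RNA of 1.79, 2.17 and 1.88 RPKM in 1R, against 2.23, 5.95 and 5.25 RPKM in 2HS and 0.0527, 0.052 and 0.151 RPKM in 2NS. Its 1R libraries lay between the other groups without overlap, and it fell relative to 2HS by 1.40 ± 0.28 SE (limma adjusted p 0.00138, and 0.110 without centring each library). JAZ5 had TRAP RNA of 0.599, 0.975 and 0.666 RPKM in 2R and of 3.57, 5.08 and 2.90 RPKM in 2HS, with no overlap, a fall of 1.65 ± 0.20 SE (adjusted p 6.95e-05).

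In the other lists, R-only promoter peaks were found at 4 of 14 water loss and abscisic acid genes (28.6%), 4 of 18 auxin and root growth genes (22.2%), 2 of 12 mitochondrial retrograde and oxidative genes (16.7%), 1 of 11 clock genes (9.09%) and 0 of 15 heat shock genes, beside the 13.7% of all genes. ABI2, a phosphatase that restrains abscisic acid signalling, had TRAP RNA of 4.84, 4.67 and 5.00 RPKM in 2R and of 1.03, 2.47 and 1.44 RPKM in 2HS, and rose by 0.98 ± 0.19 SE (limma adjusted p 0.00183). P5CS1, which makes the osmolyte proline, rose by 0.66 ± 0.17 SE in the same comparison (adjusted p 0.0101), with 6.83, 9.07 and 7.62 RPKM in 2R and 3.33, 4.51 and 3.82 RPKM in 2HS. In both genes the groups did not overlap. IAA29, an auxin response repressor whose peak at chr4:15582632-15582763 lay 1346 bp from any peak of another list, had poly(A)+ RNA of 2.87, 5.48 and 1.73 RPKM in 1R, 0.208, 0.137 and 0 RPKM in 2HS and 0.622, 1.28 and 0.397 RPKM in 2NS. Every 1R library was above every library of 2HS and 2NS, while the authors' mean in 9NS, darkness in air, was 17.2 RPKM. IAA29 rose in 1R relative to 2HS by 1.29 ± 0.26 SE (adjusted p 0.00193), and its difference from 2NS was not called (adjusted p 0.196). In TRAP RNA it rose by 2.09 ± 0.23 SE in 2R relative to 2HS (adjusted p 5.2e-05). The glycosyltransferase UGT74E2, an oxidative stress gene that acts on the auxin indole-3-butyric acid, rose in poly(A)+ RNA by 1.13 ± 0.22 SE (adjusted p 0.00121; 0.549 without centring each library), with 3.26, 4.72 and 6.96 RPKM in 1R and 0.312, 1.06 and 1.03 RPKM in 2HS. In nuclear RNA, UGT74E2 averaged 0.675 RPKM in 1R, 1.74 RPKM in 2HS and 2.96 RPKM in 2NS, a difference in the other direction that was not called (-0.87 ± 0.55 SE from 2HS, adjusted p 0.490). The clock gene LHY averaged 18.3 RPKM in nuclear RNA of 1R, 2.13 RPKM in 2HS and 13.2 RPKM in 2NS.

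The R-only promoter genes with the largest differences between 1R and 2HS were picked by those differences, and their values are a description. LSU3 and its neighbour LSU1 on chromosome 3 are small proteins induced when sulfur is short. LSU3 had the R-only peak chr3:18373261-18373392 with a score of 40.3, above the 1R median, and averaged 27.5 RPKM in poly(A)+ RNA of 1R, 0.974 RPKM in 2HS and 0.967 RPKM in 2NS. LSU1 averaged 12.3, 0.658 and 0.954 RPKM in the same groups. They are members of 1 family, so reads of the pair may be split between them. LSU1 rose in TRAP RNA of 2R relative to 2HS by 1.27 ± 0.31 SE (limma adjusted p 0.00754), with 49.7, 20.5 and 36.1 RPKM in 2R, 16.9, 9.88 and 8.88 RPKM in 2HS and no overlap. ATSDI1, a sulfur deficiency induced repressor of glucosinolate synthesis, had TRAP RNA of 6.31, 8.18 and 7.55 RPKM in 2R and of 1.88, 2.08 and 1.56 RPKM in 2HS, with a rise of 1.36 ± 0.16 SE (adjusted p 6.95e-05). SHM7, a serine hydroxymethyltransferase, averaged 25.0 RPKM in poly(A)+ RNA of 1R, 2.55 RPKM in 2HS and 2.86 RPKM in 2NS. CYP83B1, an enzyme of indole glucosinolate synthesis, averaged 51.8, 7.38 and 20.1 RPKM in the same groups.

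Further genes of this kind had values in single libraries. These genes, and those with falls below, were picked by their difference between 1R and 2HS. Their p-values for that comparison are a description and no independent support. HAT2, a homeodomain-leucine zipper factor induced by auxin, had nuclear RNA of 21.9, 7.84 and 11.1 RPKM in 1R, 0.272, 0.568 and 0.763 RPKM in 2HS and 4.16, 11.6 and 1.79 RPKM in 2NS. It rose relative to 2HS by 2.65 ± 0.55 SE (limma adjusted p 0.0357) without overlap. AT1G66940, annotated as kinase-like, had 53.1, 10.7 and 10.8 RPKM in 1R and 0.246, 0.685 and 2.04 RPKM in 2HS, and rose by 2.90 ± 0.63 SE (adjusted p 0.0381). Both calls were lost without the smallest library of 1R or without the smallest or the middle one of 2HS. They were also lost without centring each library (adjusted p 0.0934 for HAT2 and 0.0937 for AT1G66940) and with only 1R and 2HS in the fit (0.112 and 0.0868). AT5G57760 had poly(A)+ RNA of 5.66, 12.4 and 9.92 RPKM in 1R and 0.296, 1.17 and 0.591 RPKM in 2HS, and rose by 2.00 ± 0.21 SE (adjusted p 1.3e-06). AT5G54165 had 13.5, 14.1 and 6.51 RPKM in 1R, 0.207, 1.81 and 1.65 RPKM in 2HS and 0 RPKM in all libraries of 2NS. It rose relative to 2HS by 1.92 ± 0.22 SE (adjusted p 3.85e-06).

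In the other direction, CBF1, a cold response activator with an R-only peak at chr4:13023258-13023389, had nuclear RNA of 0, 0 and 0.279 RPKM in 1R, 22.1, 1.89 and 1.34 RPKM in 2HS and 0, 0 and 0.212 RPKM in 2NS. It fell relative to 2HS by 2.81 ± 0.64 SE (limma adjusted p 0.0484), a call that was kept only when the largest 1R library was the one left out, and that was lost with only 1R and 2HS in the fit (adjusted p 0.193). In TRAP RNA, CBF1 had 0.232, 0.378 and 0.161 RPKM in 2R and 2.93, 2.19 and 5.69 RPKM in 2HS, and fell by 1.99 ± 0.26 SE (adjusted p 0.00012). Its near copies in the genome make its reads uncertain. AT5G64870 had nuclear RNA of 0, 0.17 and 2.49 RPKM in 1R and 14.3, 17.8 and 4.44 RPKM in 2HS, and fell by 3.36 ± 0.53 SE (adjusted p 0.00367), with no overlap; the call was lost without the middle-sized 2HS library. Largest rises and largest falls were both picked by rule, so the presence of both directions among these genes is no result.

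The 4 highest R-only scores had pseudogenes as nearest genes, while 14 of the 26 R-only peaks with a score of at least 60 were of the class promoter-TSS. The highest score, 266.3, belonged to chr5:11754021-11754152, an intergenic peak near AT5G31891. The next 3 scores, 141.1, 114.2 and 84.9, lay on chromosome 3 between positions 13539769 and 13843610, near AT3G33002, AT3G33103 and AT3G33076. The placement of reads between pseudogenes and their functional relatives is uncertain. A mitochondrial peak at ATMG00530 (score 72.1) was the single 1R peak of that genome. The highest promoter peak of a nuclear protein-coding gene was that of AT2G12400, at chr2:5008217-5008483, with a score of 71.5 and a width of 266 bp. The gene nearest to the most R-only peaks was AT4G34950, a major facilitator transporter with 6 peaks, whose TRAP RNA averaged 8.71 RPKM in 2R, 41.2 RPKM in 2HS and 33.2 RPKM in 2NS. WRKY29, a defence transcription factor with 5 peaks, averaged 5.35 RPKM in TRAP RNA of 2R, 10.9 RPKM in 2HS and 8.39 RPKM in 2NS.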

How the data were processed

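The authors deposited 1 annotated peak list per ATAC condition with a Peak Score and, per the file headers, made it from combined samples; HOMER annotated it against TAIR10 and Araport11. The HRE2 list was used for its positions alone. The authors' deposited RPKM table held 1 mean per group and assay, with no ATAC column. Bowtie2, TopHat2 and HOMER are named in the submitters' processing notes; the sources used here name no versions, roles, settings or strandedness, so overlapping, antisense and near-identical genes are uncertain. Text columns of the deposited lists, whose unit is other than a measurement, gave the annotation class and nearest gene.

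Peak coordinates are printed as deposited, and no genome sequence was used. Of 37899 identifiers, 37746 matched the RefSeq gene table (TAIR10.1), used for symbols, gene types and gene lengths. The recovery of reads rests on these lengths. The digits of a mean of whole reads allow few solutions. The reads of each of the 3 RNA libraries of a group were therefore recovered for most identifiers, those listed at 0 included. Abundant genes were often left unresolved. All reads recovered in simulated data were right. The totals recovered ran between 1.05 and 16.6 M reads (1e6) per nuclear RNA library, between 8.66 and 21.0 M per poly(A)+ library and between 2.53 and 12.4 M per TRAP library. Whether the samples of a group are separate biological material is not stated, so p-values measure the spread between these samples, which may be technical. limma 3.58.1 (R 4.3.3) was fitted to log2(RPKM + 1) of these libraries with 1 fit per assay over its groups, each library centred on its median gene, a variance trend and Benjamini-Hochberg adjustment over all resolved genes at 0.05. Tested on simulated data, it called 31% to 62% of genes changed 4-fold and 0% to 6% of those changed 2-fold. The simulated spread was the same in every assay, was not taken from these libraries, and left no gene unresolved. These shares may therefore not hold for the real libraries, above all the uneven ones of nuclear RNA. Changes of the authors' means use genes averaging 1 RPKM or more and are centred on the median gene; they understate the change of low genes.

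Named genes were those of the 10 highest R-only scores, the 10 largest rises and 5 largest falls of 1R against 2HS among genes with an R-only promoter peak in nuclear and in poly(A)+ RNA, list members with an R-only peak, and the 5 genes nearest to the most R-only peaks. The members and lists were chosen with earlier results of these data known. HRU1, NAC013, UPOX, CAT2 and RAB18 were listed but not matched.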

Additional observations from a re-analysis of the deposited data

How the results depend on the processing

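The number of R-only peaks was 10029 when less than 50% cover counted as no overlap, 5920 when peaks of other lists within 150 bp counted as overlap, and 11944 against the 2NS and 2HS lists alone. It was 196 at or above the median score; of these 66.8% were at promoters, 11.7% at termination sites, 12.8% intergenic and 5.61% in exons. With the 150 bp limit the median score of shared peaks was 45.2. Alternatives chosen after seeing the data gave 7592 R-only peaks with a score of at least 21.9 and 82 among the strongest 14398 peaks.

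The share of R-only promoter genes at least 2-fold apart moved with the pseudocount and the filter. For 0.1 RPKM, 5 RPKM, no filter, a mean of at least 5 RPKM and no centring it was 41.1%, 6.15%, 25.2%, 22.9% and 34.2% in nuclear RNA of 1R against 2HS, and 7.67%, 1.87%, 3.94%, 6.32% and 14.8% in poly(A)+ RNA. Against 2NS the first 4 gave 29.9%, 2.53%, 13.8% and 13.5% in nuclear RNA, and all 5 gave 6.13%, 1.82%, 5.94%, 4.77% and 35.5% in poly(A)+ RNA. Nearest genes of every R-only peak gave 6.05% (2HS) and 4.36% (2NS) in poly(A)+ RNA, and genes with no other promoter peak 3.02% and 2.71%, with 16.1% in nuclear RNA against 2NS. Without centring the median changes were 0.48 and 0.072 in nuclear and 0.60 and 0.84 in poly(A)+ RNA, against 2HS and 2NS.

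Limma counts of R-only promoter genes changed in fits chosen after seeing the data. In nuclear RNA of 1R against 2HS, 0 rose and 2 fell with only these groups fitted, 0 rose without centring each library, and 19 rose and 24 fell with libraries rescaled before the pseudocount. In poly(A)+ RNA, rescaling gave 39 falls against 2HS, and 44 rises and 43 falls against 2NS; without centring there were 5 rises and 2 falls against 2HS, and 2 and 1 against 2NS. Leaving out 1 library gave 0 to 14 rises and 0 to 19 falls in nuclear RNA against 2HS, 0 to 0 against 2NS, 62 to 88 and 35 to 58 in poly(A)+ RNA against 2HS, 46 to 60 and 32 to 61 against 2NS, and in TRAP RNA of 2R 196 to 259 and 151 to 208 against 2HS and 8 to 44 and 3 to 19 against 2NS. Of 34 calls of named genes, 22 were kept in every fit without 1 library, 30 with only the groups compared, 22 without centring each library and 33 with rescaling. The cause of these moves was not tested. No call turned its direction; without centring, the poly(A)+ medians above, near 0 when centred, and the uncalled SUS1 change took the opposite sign. No paired analysis was possible because the recovered libraries carry no replicate number and each peak list combines its samples.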
